A study of Homo sapiens with 2 samples.

Results

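S-phase cardiomyocytes were 471 cells chosen by their own RNA counts. They showed cardiac troponin T transcript together with at least 6 molecules summed over 6 genes of DNA replication and its control. Each cell had to have at least 1000 detected genes, at most 25% mitochondrial molecules and at most 35000 RNA molecules, counted as unique molecular identifiers (UMIs). A cardiomyocyte had TNNT2, the gene of cardiac troponin T, at 2000 CPM or more (counts scaled to a total of 1000000 per cell or group) and at most 4 UMIs over the epithelial genes VTCN1, GATA3, CLDN4 and WNT6. Of 14829 barcodes, 11211 passed the limits on cells and 5095 of those were cardiomyocytes. Within the cardiomyocytes, S phase required a sum over DTL, CLSPN, GINS2, CDC6, E2F1 and MCM10 of 6 UMIs or more and a sum over the G2 genes CCNB1, PLK1, CDC20 and DLGAP5 of 3 or less. The 471 cells were 9.24% of cardiomyocytes, with an exact (Clopper-Pearson) binomial 95% interval of 8.46 to 10.1%.

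All cells grew in 1 culture. It was made from HES2, an established line of human embryonic stem cells, by a protocol that yields SANLPC, cells that resemble the pacemaker cells of the sinoatrial node. After dissociation, a barcoded antibody against CD34 was added and live singlets were sorted with the dye DAPI, and the labels name no other gate. The 2 libraries, 1 of polyadenylated RNA from a droplet 3' kit and 1 of the antibody's tags, share all 14829 barcodes. All groups below carry the same line, differentiation and stain and differ only in which transcripts were found in the cell.

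S-phase cardiomyocytes were set against 233 cardiomyocytes in G2 and mitosis (G2 sum of 6 or more, S sum of 3 or less, 4.57% of cardiomyocytes) and against 3700 resting cardiomyocytes with both sums at 0 to 1 (72.6%). Resting is a name for low sums: cells in G1 and cells that have left the cycle cannot be told apart here. A further 177 cardiomyocytes had an S sum of 6 or more with a G2 sum over 3, and 514 lay between the groups. The same contrast was taken in 399 S-phase and 1886 resting epithelial-like cells, which had at least 5 UMIs of the epithelial genes and TNNT2 under 500 CPM. Values are summed counts of a group scaled to CPM and ratios of CPM. A gene was called higher or lower at 1.5-fold, a ratio of 1.5 or more or of 0.667 or less, where the mean of both CPM values was at least 10. Cells of 1 culture are not replicates, so there is no test, and every interval is an exact 95% interval that covers counting error only. The RNA counts that are described are those that chose the cells, so ratios between the groups describe how the groups differ and support nothing further.

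Before a cell copies its DNA, origins are licensed by loading of the MCM helicase, and the helicase is then activated by CDC45 and the GINS complex, after which polymerases, the sliding clamp PCNA and a supply of nucleotides carry synthesis along. Transcription of these genes is driven by E2F factors that are released when cyclin D and cyclin E kinases phosphorylate RB. Most heart muscle cells leave the cycle around birth, whereas cardiomyocytes of the embryo, and those made from stem cells, still divide while they carry sarcomeres.

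E2F factors bind TTTGGCGC and close relatives, and such sequences lie just upstream of some of the genes that chose the cells and of some of those that moved with them. The motif searched was TTT, followed by a pair of bases each C or G, followed by CGC, on either strand of the 250 bases before the RefSeq start site (GRCh38.p14). The forms found in the windows shown were TTTGGCGC, TTTCCCGC, TTTGCCGC and TTTCGCGC, and a palindrome-like run can hold overlapping matches on both strands. The 120 bases nearest the start site are printed 5' to 3' on the gene's strand, with matches to the motif on either strand in capitals. DTL, GINS2 and E2F1 are shown as genes of the rule with a match. PCNA, TYMS and MCM6 are genes of the replication lists with a match. CDC45 is shown as a gene with none, although its window holds tttggcgg, which misses the motif by its last base only. The CDC45 window lies inside the RefSeq span of the gene given further down, so the start site used is not the outer end of that span. The same holds for the window of RRM2 counted below, whereas the other windows shown adjoin the spans of their genes.
DTL: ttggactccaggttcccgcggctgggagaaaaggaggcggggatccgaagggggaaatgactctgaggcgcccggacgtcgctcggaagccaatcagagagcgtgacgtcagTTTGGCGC
GINS2: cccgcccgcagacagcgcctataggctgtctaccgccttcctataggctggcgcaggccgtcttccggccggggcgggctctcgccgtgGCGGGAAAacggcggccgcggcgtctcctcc
E2F1: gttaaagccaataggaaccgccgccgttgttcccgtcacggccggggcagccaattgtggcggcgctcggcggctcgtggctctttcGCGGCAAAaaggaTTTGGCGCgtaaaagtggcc
PCNA: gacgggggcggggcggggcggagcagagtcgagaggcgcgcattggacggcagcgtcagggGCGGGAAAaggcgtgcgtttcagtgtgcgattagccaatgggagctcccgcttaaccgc
TYMS: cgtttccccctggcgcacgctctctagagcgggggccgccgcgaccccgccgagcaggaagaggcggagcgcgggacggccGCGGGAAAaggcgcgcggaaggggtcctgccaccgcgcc
MCM6: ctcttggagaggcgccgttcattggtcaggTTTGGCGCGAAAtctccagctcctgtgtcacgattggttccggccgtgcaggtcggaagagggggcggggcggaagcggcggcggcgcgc
CDC45: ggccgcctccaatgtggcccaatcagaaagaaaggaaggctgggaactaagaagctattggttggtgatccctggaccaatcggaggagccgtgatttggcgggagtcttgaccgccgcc
The windows lie at chr1:212035628-212035747 on the plus strand for DTL, chr16:85688955-85689074 on the minus strand for GINS2, chr20:33686386-33686505 on the minus strand for E2F1, chr20:5126623-5126742 on the minus strand for PCNA, chr18:657533-657652 on the plus strand for TYMS, chr2:135876444-135876563 on the minus strand for MCM6 and chr22:19479800-19479919 on the plus strand for CDC45. The matches began 8 bases before the start site in DTL, 31 in GINS2, 33 and 20 in E2F1, 59 in PCNA and 39 in TYMS. MCM6 held 4 matches in 250 bases, overlapping in pairs, and 1 pair lies in the printed stretch. The motif was found in 3 of the 6 genes of the rule, in 11 of the 50 promoters found for 4 lists of replication genes (22.0%), in 355 of 7292 promoters of all genes measured (4.87%) and in 761 of all 27305 promoters (2.79%). It was found in 4 of 10 licensing promoters (CDT1, MCM3, MCM6 and MCM7) and in 0 of 11 for helicase activation, and the windows of CLSPN, CDC6, MCM10, MCM2 and RRM2 held none. Among other lists, it was found in 0 of 15 promoters for checkpoint and repair, 4 of 12 for chromatin assembly and 5 of 15 for cyclins and E2F-RB. A second motif, TTTGAA or TTTAAA on either strand, the core of the CHR element of G2 genes, was found in 19 of 22 promoters of a G2 and mitosis list (86.4%), in 4 of the 50 replication promoters (8.0%) and in 22.1% of all promoters. This short motif was also found in 6 of 15 sarcomere promoters (40%), in 4 of 9 for calcium handling (44.4%) and in 13.6% of promoters of all genes measured. The CDC6 window, counted as without an E2F match, holds tttggcgg as well. A match describes these letters only, and a window without one can hold near relatives of the motif.

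The genes of the rule were spread widely over the cells they chose. Their sum had a median of 14 UMIs (quartiles 9 and 20, highest 52), and the G2 sum of the same cells had a median of 1. GINS2, a subunit of the replicative helicase, was found in 96.2% of S-phase cardiomyocytes, CLSPN, encoding the checkpoint mediator claspin, in 94.1%, E2F1 in 86.8%, DTL, which targets CDT1 for destruction, in 78.1%, the MCM loading factor CDC6 in 77.1% and MCM10 in 71.5%. After thinning every cell to 5000 UMIs, CLSPN was found in 57.9% of 470 S-phase cardiomyocytes and in 1.41% of 3474 resting ones, and MCM10 in 27.4% and 0.230%. Summed levels were 202.5 CPM of CLSPN in S-phase cardiomyocytes, 13.2 CPM in G2 and 2.24 CPM in resting cardiomyocytes. These values follow from the rule.

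The limit of 6 UMIs cut through a continuous range. The 28 cells with a sum of exactly 6, just inside, had PCNA at 193 CPM, MCM2 at 68.5 CPM and TYMS at 249 CPM. The 34 cardiomyocytes with a sum of 5, just outside, had PCNA at 139 CPM, MCM2 at 47.7 CPM and TYMS at 149 CPM, against 20.7, 2.61 and 13.6 CPM where the sum was 0. The limit on TNNT2 was less crowded, with 63 of 5095 cardiomyocytes (1.24%) within 10% of it. Of the cells over 35000 UMIs that would else pass as cardiomyocytes, 46 of 181 (25.4%) met the S-phase sums and were left out by the rule.

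**Figure D1:**
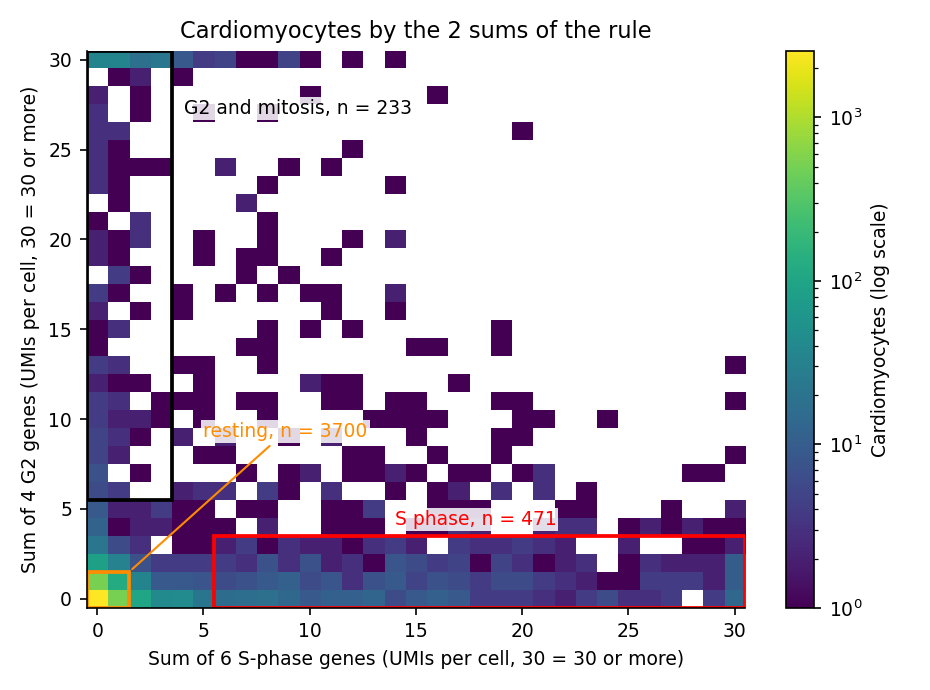
Cardiomyocytes by the sum of the 6 S-phase genes (x axis, UMIs per cell) and the sum of the 4 G2 genes (y axis, UMIs per cell), with sums of 30 or more drawn at 30 and colour giving the number of cells on a log scale. The boxes enclose the 471 S-phase, 233 G2 and 3700 resting cardiomyocytes, and cells lie on both sides of each edge.

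The label of the cells was set beside cardiomyocyte genes, which are likely to be high in cells chosen by TNNT2. The S-phase part of the label rests on transcripts. DNA content was not measured in these 2 libraries, so cells late in G1 cannot be told apart. Of the 471 cells, 5.10% had no PCNA UMI, 52.0% no RRM2 UMI and 52.4% no MKI67 UMI. The 11 cardiomyocyte identity genes other than TNNT2, among them MYH6, MYL7, ACTC1 and RYR2, summed to 44765 CPM in S-phase cardiomyocytes, 37077 CPM in G2 and 53020 CPM in resting cardiomyocytes, against 860 CPM in S-phase epithelial-like cells. None of the 11 was at 0. TNNT2 had a median of 6034 CPM per cell (quartiles 4631 and 7502) in S-phase, 4610 CPM in G2 and 7418 CPM in resting cardiomyocytes. Markers of other cell types were present at low sums. The 7 fibroblast genes summed to 296 CPM in S-phase, 854 CPM in G2 and 553 CPM in resting cardiomyocytes, and the 6 epithelial genes to 736, 634 and 776 CPM in the same order, of which KRT8 and KRT18 gave most. Of the 7 endothelial and blood genes, 5 were at 0 in S-phase cardiomyocytes (PECAM1, CDH5, PTPRC, HBA1 and HBG1), and the 7 summed to 1.94 CPM. The 5 epicardial genes summed to 51.0 CPM in S-phase and 57.1 CPM in resting cardiomyocytes, the 5 neural genes to 5.92 and 6.94 CPM and the 4 pluripotency genes to 1.12 and 1.36 CPM.

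S-phase cardiomyocytes were deeper than resting ones. They had a median of 20968 RNA UMIs (quartiles 17408 and 24153.5) and 5236 genes, G2 cardiomyocytes 15942 UMIs and 4463 genes, and resting cardiomyocytes 14983.5 UMIs and 4211.5 genes. Group totals were 9802013, 4021211 and 55297893 UMIs in the same order. The median mitochondrial share was 12.7% in S-phase, 10.5% in G2 and 12.2% in resting cardiomyocytes. After all cardiomyocytes were first thinned to 8000 UMIs, the 452 then chosen had a median of 21070 UMIs before thinning, and the 2755 resting cells 15968. They were 10.0% of 4505 cardiomyocytes. Scrublet called 18 of the 471 S-phase cardiomyocytes doublets (3.82%), 21 of the G2 (9.01%) and 80 of the resting cells (2.16%), and called cells were kept as the rule has it. The part of depth and of doublets in the results was not tested beyond the alternatives given at the end.

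Across 8821 genes measured, 821 were at least 1.5-fold higher in S-phase than in resting cardiomyocytes (9.31%) and 174 were at least 1.5-fold lower (1.97%), with a median log2 ratio of -0.02. In UMIs per cell, without scaling to the cell totals, every log2 ratio is 0.48 greater, and the same counts become 2893 and 13. Of 59 genes in 4 lists of replication genes (licensing, helicase activation, polymerases and nucleotide supply), 54 were measured, 51 were higher, none was lower, and 3 lay between. Their median log2 ratio was 2.83, and together they summed to 5611 CPM in S-phase and 923 CPM in resting cardiomyocytes.

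Licensing genes were higher in 10 of 11 measured, with a median log2 ratio of 2.99. The 6 subunits of the MCM helicase ranged from a 6.77-fold (MCM3) to a 24.2-fold difference (MCM2). MCM2 had 68.1 CPM in S-phase, 2.49 CPM in G2 and 2.82 CPM in resting cardiomyocytes, and MCM3 had 361, 42.3 and 53.4 CPM. MCM2 was thus as low in G2 as in resting cells, whereas MCM3 was present in all groups. CDT1, which loads MCM onto origins, had 69.3 CPM in S-phase, 12.4 CPM in G2 and 2.01 CPM in resting cardiomyocytes, 34.5-fold above resting cells (28.2 to 42.6). GMNN, encoding the CDT1 inhibitor geminin, had 205 CPM in S-phase and 25.7 CPM in resting cardiomyocytes. ORC6 of the origin recognition complex was 6.52-fold higher, ORC2 lay between with a ratio of 1.23, and ORC1 was below the floor of 10 CPM, at 10.5 and 0.434 CPM.

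All 12 measured genes of helicase activation and the fork were higher, with a median log2 ratio of 3.003. CDC45 (chr22:19479466-19520612 in RefSeq GRCh38.p14, as are the positions below), which joins MCM and GINS into the active helicase, had 39.8 CPM (35.9 to 43.9) in S-phase, 3.23 CPM in G2 and 0.488 CPM in resting cardiomyocytes, a ratio of 81.5 (55.1 to 125) to resting cells. After thinning to 5000 UMIs it was found in 16.8% of S-phase and 0.259% of resting cardiomyocytes. The fork protection gene TIMELESS was 14.6-fold higher and its partner TIPIN 4.62-fold. The subunits of the single-strand binding protein RPA differed less, from 2.31-fold (RPA1) to 4.79-fold (RPA3). The smallest difference was in DBF4, the activating subunit of the CDC7 kinase, with 33.2 CPM in S-phase, 113 CPM in G2 and 15.8 CPM in resting cardiomyocytes.

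Of 19 measured genes of polymerases, clamp and flap processing, 18 were higher, with a median log2 ratio of 3.06. PCNA (chr20:5114953-5126622), the clamp, had 253.5 CPM in S-phase, 25.1 CPM in G2 and 20.8 CPM in resting cardiomyocytes. Its median per cell was 228 CPM in S-phase (10th and 90th percentiles 64.8 and 446) and 0 in both G2 and resting cardiomyocytes. Thus 5.10% of S-phase cells had no PCNA UMI, against 67.4% of G2 and 73.7% of resting cells. The flap nuclease FEN1 was 16.03-fold higher, DNA ligase LIG1 11.01-fold, and POLA2 of the priming polymerase 13.9-fold. Loaders of the clamp ranged from 1.84-fold (RFC1) to 8.94-fold (RFC4). POLD2 lay between, with 107 CPM in S-phase and 84.8 CPM in resting cardiomyocytes.

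Nucleotide supply genes were higher in 11 of 12, with a median log2 ratio of 2.03. TYMS, encoding thymidylate synthase, had 395 CPM in S-phase, 342 CPM in G2 and 13.4 CPM in resting cardiomyocytes. TK1, thymidine kinase, had 116, 62.4 and 3.02 CPM, and RRM2, the regulated subunit of ribonucleotide reductase, 104, 87.0 and 3.24 CPM. TYMS and RRM2 were thus less than 1.5-fold apart between S-phase and G2, while TK1 was 1.86-fold higher in S-phase than in G2. RRM1, the other reductase subunit, was 6.57-fold higher in S-phase than in resting cells, and DUT, which removes dUTP, 4.50-fold. The nucleoside transporter SLC29A1 lay between, at 30.4 CPM in S-phase and 20.7 CPM in resting cardiomyocytes.

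Checkpoint and repair genes were higher in 13 of 14 measured, with a median log2 ratio of 4.51. BRCA2, which acts in repair by homologous recombination, had 95.8 CPM in S-phase and 2.33 CPM in resting cardiomyocytes (41.1-fold). CHEK1, the kinase of the replication checkpoint, was 22.6-fold higher and BRCA1 21.6-fold. The mismatch repair gene MSH6 was present in resting cells and differed 3.50-fold, and ATR, the apical kinase of the checkpoint, lay between at 24.1 and 16.9 CPM.

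Chromatin assembly and maintenance methylation followed, with 12 of 13 higher and a median log2 ratio of 3.63. ASF1B, a histone chaperone, had 41.2 CPM in S-phase and 0.579 CPM in resting cardiomyocytes (71.2-fold), with 0.102 CPM, a single UMI, in 471 resting cells matched to the S-phase cells on total RNA UMIs, whereas its paralog ASF1A had 37.4 and 34.9 CPM. UHRF1, which brings the methyltransferase to copied DNA, was 36.7-fold higher, and DNMT1, the maintenance methyltransferase, 4.01-fold, at 280.1 CPM in S-phase and 69.9 CPM in resting cells. CHAF1A of the assembly factor CAF-1 was 16.4-fold higher, the histone chaperone NASP 3.32-fold, and SLBP, which binds the stem-loop of histone mRNA, 3.58-fold.

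**Figure D2:**
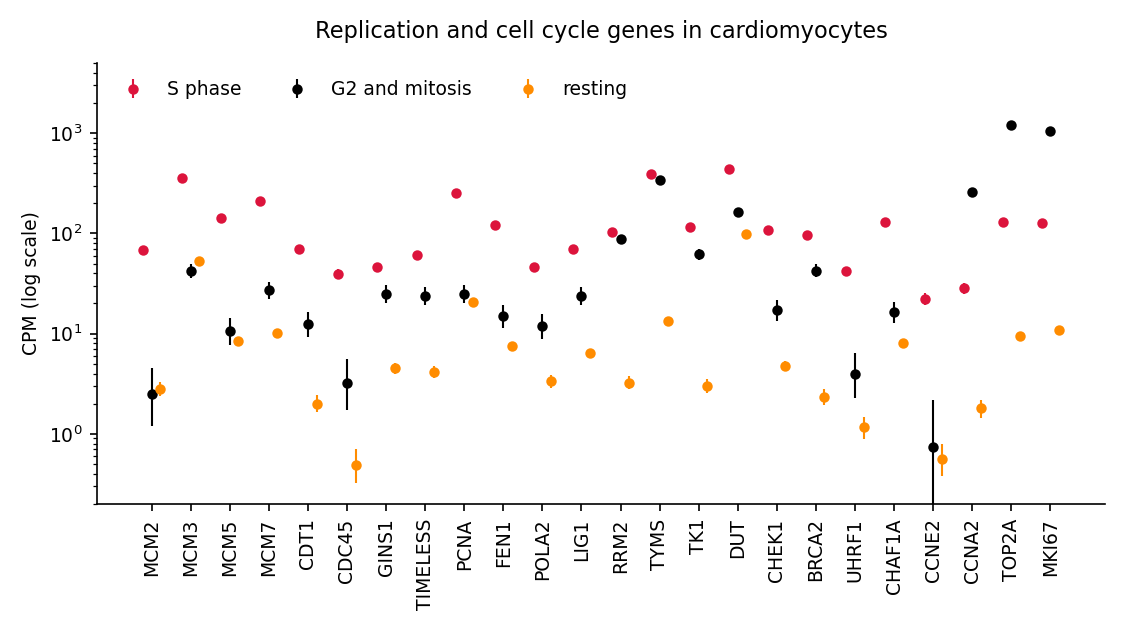
Summed level in CPM (y axis, log scale) of 24 replication and cell cycle genes in S-phase (red), G2 (black) and resting (orange) cardiomyocytes, with bars for the 95% counting interval. MCM2 and PCNA are high in S phase and near the resting level in G2, CDC45 in G2 lies between, TYMS and RRM2 are high in both cycling groups, and CCNA2, TOP2A and MKI67 are highest in G2.

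Of the 20 genes with the highest ratio outside the rule, 11 belong to the lists above or below. FAM111B (chr11:59107237-59127412), a protease of the FAM111 family, stood first, with 86.2 CPM in S-phase, 3.48 CPM in G2 and 1.03 CPM in resting cardiomyocytes, 83.6-fold above resting cells (63.9 to 111). CDC45, ASF1B, BRIP1 (43.3-fold), BRCA2 and TK1 (38.5-fold) were also among the 20. PCLAF, encoding a PCNA-binding protein, had 348 CPM in S-phase and 9.39 CPM in resting cardiomyocytes, and CENPK, a kinetochore gene, 138 and 3.98 CPM. Others were CENPM, CDCA5, SHCBP1, UHRF1, CDT1, WDR76, PBK, RRM2, TYMS, HIST1H1B and NCAPG, with ratios from 28.5 to 37.9. Against resting cells matched on depth, the ratio was 141 for FAM111B, 130.0 for CDC45, 96.0 for BRIP1 and 78.2 for BRCA2, and between 53.4 and 86.1 for CENPM, CDCA5, WDR76, PBK and NCAPG. These ratios rest on few UMIs. In the matched resting cells the genes lay between 0.306 CPM (CDC45) and 1.22 CPM (BRCA2), where a single UMI is 0.102 CPM. With a G2 sum of 1 or less in the S-phase cells, RRM2 was at 20.1 and HIST1H1B at 12.8.

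Cyclins and E2F-RB genes were higher in 14 of 18 measured, with a median log2 ratio of 1.40, among them the E and A cyclins. CCNE2 had 22.3 CPM in S-phase, 0.746 CPM in G2 and 0.561 CPM in resting cardiomyocytes (39.9-fold over resting, 27.3 to 60.1), and CCNE1 had 23.7, 3.73 and 4.38 CPM. CCNA2, the cyclin of S and G2, had 28.3 CPM in S-phase, 260.4 CPM in G2 and 1.79 CPM in resting cardiomyocytes. The D cyclins, which act before S phase, did not separate the groups in the same way. CCND1 had 67.7 CPM in S-phase, 31.8 CPM in G2 and 67.4 CPM in resting cardiomyocytes, CCND2 had 213, 91.5 and 178 CPM, and CDK6 had 64.4, 41.5 and 64.7 CPM. CCND3 was 1.76-fold and CDK4 1.63-fold higher in S-phase than in resting cells. CDK2 was 7.53-fold higher and its activating phosphatase CDC25A 8.51-fold. Of the RB family, RBL1 was 6.87-fold higher, RB1 1.56-fold, and RBL2 lay between at 25.6 and 21.3 CPM. E2F8, a repressive E2F, was 3.85-fold higher, at 40.7 CPM in S-phase and 10.6 CPM in resting cardiomyocytes.

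Of 9 measured inhibitor and exit genes, none was higher and 2 were lower (median log2 ratio -0.41). CDKN1C, encoding the inhibitor p57, had 55.3 CPM in S-phase, 98.7 CPM in G2 and 92.6 CPM in resting cardiomyocytes, a ratio of 0.597 (0.546 to 0.653) to resting cells that is 0.832 in UMIs per cell and 0.718 among cells with 3 or more TBX3 UMIs. TOB1, an antiproliferative gene, had 11.9 and 18.4 CPM in S-phase and resting cells. CDKN1B, encoding p27, had 35.6 CPM in S-phase, 103.5 CPM in G2 and 48.3 CPM in resting cardiomyocytes. Of the 5 genes below the floor, CDKN1A had 5.10 CPM in S-phase and 13.6 CPM in resting cells, CCNG2 4.49 and 10.7 CPM, and CDKN2C, encoding the inhibitor p18, 6.02 and 0.506 CPM. CDKN2A and CDKN2B had 1 and 0 UMIs in S-phase cardiomyocytes.

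Replication-dependent histone mRNAs mostly end in a stem-loop without a poly(A) tail, so a polyadenylated library captures them poorly, and near-identical copies can share reads. Of 71 such genes, 14 were measured, 10 were higher and 3 lower, with a median log2 ratio of 1.60. HIST1H4C had 396 CPM in S-phase, 368 CPM in G2 and 78.0 CPM in resting cardiomyocytes (5.08-fold over resting, and 2.70-fold with a G2 sum of 1 or less). HIST1H1B, a linker histone, had 145, 87.5 and 4.92 CPM, and was found in 187 of 471 S-phase cardiomyocytes. The lower genes were HIST2H2BE (10.5 CPM in S-phase and 29.3 CPM in resting cells), HIST1H2AC (10.2 and 21.2 CPM) and HIST3H2A (15.9 and 31.6 CPM).

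Genes of G2 and mitosis were above resting levels in S-phase cardiomyocytes. Of 28 in the list, 23 were measured against resting cells and 22 were higher (median log2 ratio 3.14), while PTTG1 lay between at 45.2 and 42.3 CPM. Against G2 cardiomyocytes, where 994 of 8846 genes were higher in S-phase (11.2%) and 820 lower (9.27%), all 28 were lower, with a median log2 ratio of -3.01. TOP2A had 130.5 CPM in S-phase, 1215 CPM in G2 and 9.39 CPM in resting cardiomyocytes, MKI67 had 128, 1045 and 10.9 CPM, and CENPF had 145.5, 2165 and 19.0 CPM. The direction of the last contrast is partly set by the rule, which limits G2 genes in S-phase cells. Of 55 replication genes measured against G2 cells, 48 were higher in S-phase and 2 lower, DBF4 (ratio 0.294) and DTYMK (0.422). Their median log2 ratio was 1.49. This direction too is partly set by the rule, which limits the S sum to 3 in G2 cells. The genes furthest above G2 were MCM2 (27.4-fold), FAM111B (24.8-fold), MCM6 (20.4-fold), SST (17.1-fold), WDR76, MCM5, CDC45 and UHRF1. SST, encoding somatostatin, rested on few cells, since 5 cells held 98.3% of its 666 UMIs. The lowest against G2 were PLA2G2A, SAPCD2, PIF1, TNFAIP8L1, KIF20A, CENPA, PIMREG and NEK2, and 5 cells held 99.6% of the 462 PLA2G2A UMIs of the G2 group.

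Cyclin transcripts divided the S-phase cardiomyocytes themselves. Of the 471, 185 (39.3%) held no UMI of CCNE1, CCNE2 or CCNA2, 138 (29.3%) held cyclin E only, 95 (20.2%) both and 53 (11.3%) cyclin A only. Median depths were 19841, 21510.5, 22863 and 20584 UMIs in that order, so the class of a cell depends in part on its depth. HIST1H4C had 128 CPM in cells with neither, 209.7 CPM with cyclin E only, 867 CPM with both and 871 CPM with cyclin A only. HIST1H1B had 17.5, 62.0, 349.5 and 390.0 CPM in the same order, a ratio of cyclin A only to cyclin E only of 6.29 (5.27 to 7.54). RRM2 had 23.7, 66.1, 266 and 153 CPM, and TOP2A had 48.0, 82.0, 283 and 237 CPM. The licensing genes MCM2 and CDT1 were nearer to level. MCM2 had 71.2, 66.8, 75.5 and 46.7 CPM, and CDT1 had 58.4, 73.7, 78.7 and 75.6 CPM. PCNA, with 182, 273, 339 and 273 CPM, and CDC45, with 26.5, 39.3, 63.0 and 40.1 CPM, varied more. So did FEN1, with 87.0, 119, 175 and 136 CPM, and TYMS, with 233, 385, 637 and 491 CPM. Histone, reductase and topoisomerase transcripts were thus highest in the cells that held CCNA2, and MCM2 was lowest with cyclin A only.

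**Figure D3:**
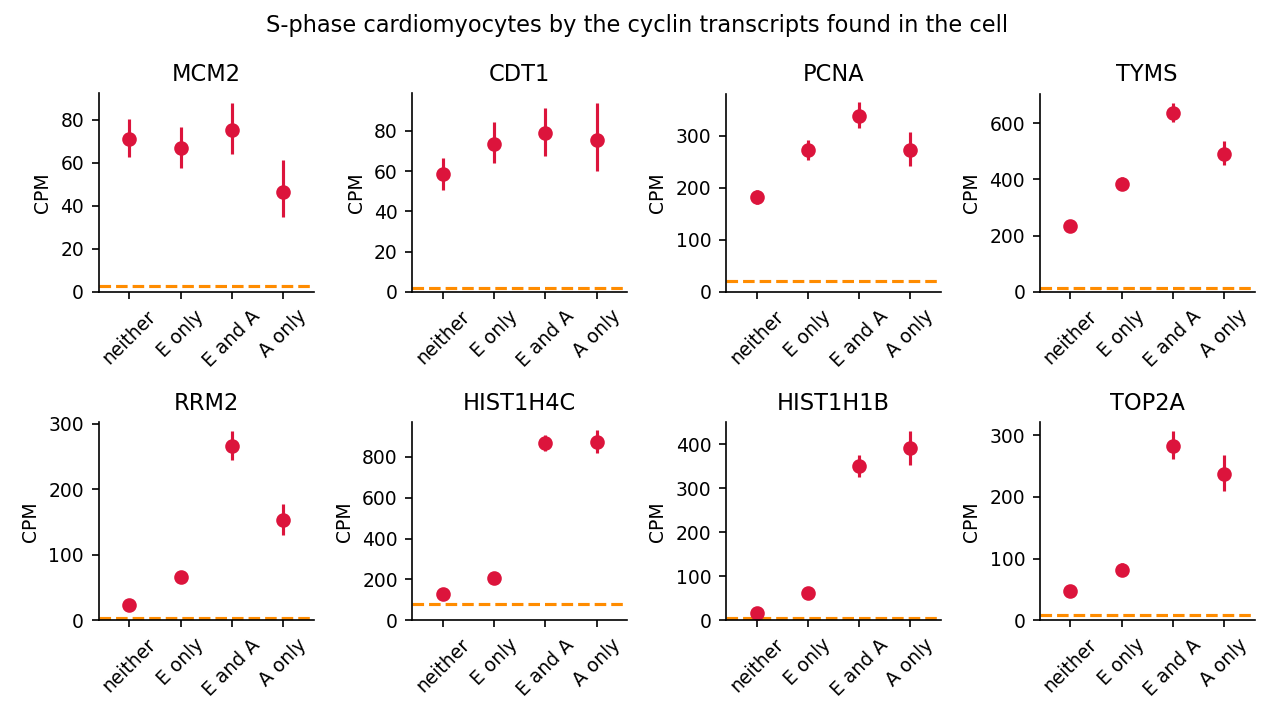
Summed level in CPM (y axes) of 8 genes in the 471 S-phase cardiomyocytes split by the cyclin transcripts in the cell (x axis: neither, cyclin E only, both, cyclin A only), with 95% counting intervals. The dashed line is the resting level. HIST1H4C is at 871 CPM with cyclin A only and 209.7 CPM with cyclin E only, while CDT1 lies between 58.4 and 78.7 CPM.

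Cardiomyocyte genes were found in S-phase cardiomyocytes, where they are likely to be high because TNNT2 chose the cells. Of 17 measured sarcomere genes, none was higher, 1 was lower and all 17 had a ratio below 1, with a median log2 ratio of -0.24 beside -0.02 for all genes. MYH6, the atrial heavy chain, had 5847 CPM in S-phase, 6399 CPM in G2 and 7620 CPM in resting cardiomyocytes. Per cell its medians were 5332, 6076 and 6929 CPM, and the quartiles of S-phase cells (3830 and 7059 CPM) overlapped those of resting cells (4817 and 9555 CPM). ACTC1 had 7045 CPM in S-phase and 9621 CPM in resting cells, TTN 7485 and 9065 CPM, and MYL7 12335 and 13331 CPM. The gene called lower, CSRP3, encoding a Z-disc protein, had 447 CPM in S-phase, 259.9 CPM in G2 and 680.5 CPM in resting cardiomyocytes, and its ratio of 0.657 lay at the limit of the call. The G2 cells lay further from resting, with a median log2 ratio of -0.52. Against all resting cells, the direction rests on the scaling: in UMIs per cell the sarcomere median is 0.24. MYH6 had 122 UMIs per S-phase cell and 114 per resting cell. At the median gene, S-phase cardiomyocytes thus held at least as many sarcomere UMIs per cell as these shallower cells. Those UMIs were a smaller share of a larger total. Against resting cells matched on total RNA UMIs, TNNT2 had a ratio of 0.817. TNNT2 is a gene of the rule and outside the list, so this value does not speak for the list.

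Calcium handling genes had no call in 8 measured, with a median log2 ratio of -0.33. PLN, which restrains the calcium pump, had 667 CPM in S-phase, 371 CPM in G2 and 965 CPM in resting cardiomyocytes, and the release channel RYR2 had 408, 250.2 and 445 CPM. Pacemaker genes had no call in 16, with 15 ratios below 1 and a median log2 ratio of -0.26, which is 0.22 in UMIs per cell. SHOX2, a transcription factor of the sinus node, had 479.5 CPM in S-phase, 540.4 CPM in G2 and 574 CPM in resting cardiomyocytes. HCN4, the pacemaker channel, had 83.9, 102.5 and 105 CPM, and ISL1 had 72.4, 99.2 and 69.1 CPM. TBX3, the repressor of working myocardium, had 143 CPM in S-phase, 188 CPM in G2 and 213 CPM in resting cardiomyocytes, a ratio of 0.669 (0.633 to 0.708). It came just short of the limit of 1.5-fold and was 0.786 against resting cells matched on depth. Working cardiomyocyte genes had no call in 8 measured (median log2 ratio -0.30), with NPPA at 407 CPM in S-phase, 248 CPM in G2 and 501 CPM in resting cells.

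**Figure D4:**
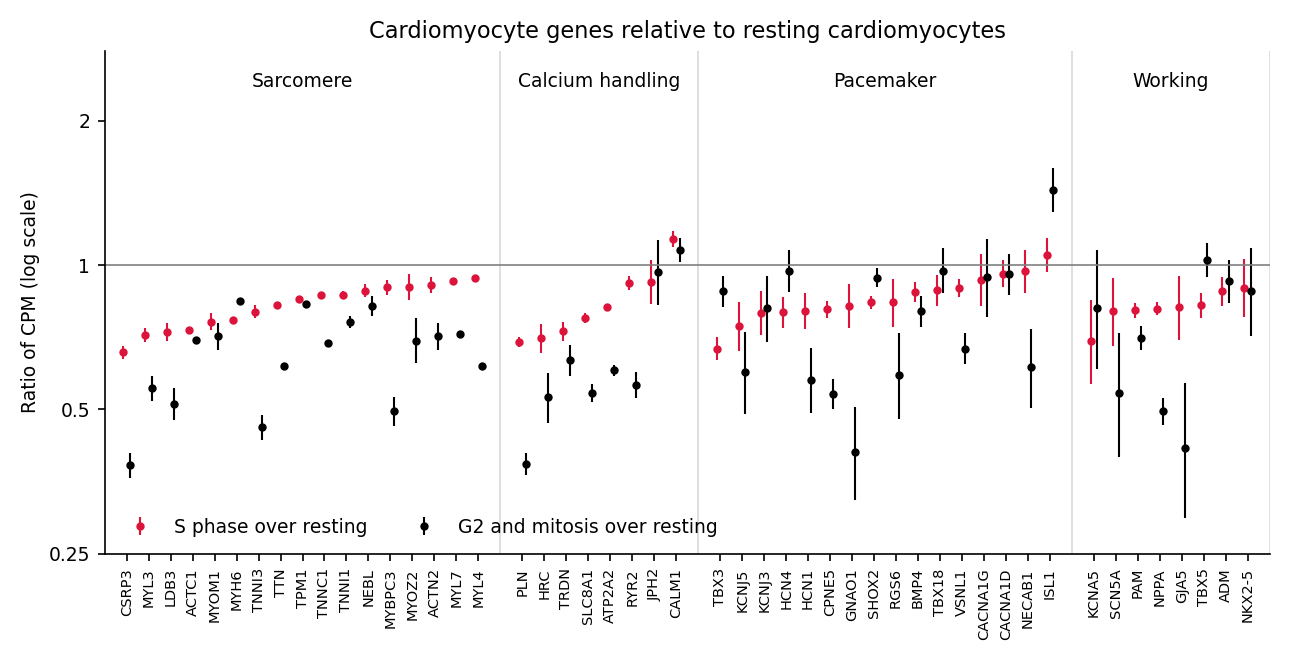
Ratio of CPM to resting cardiomyocytes (y axis, log scale) of measured sarcomere, calcium handling, pacemaker and working genes for S-phase (red) and G2 (black) cardiomyocytes, with 95% counting intervals. All 17 red sarcomere points lie below 1, between 0.657 and 0.941, and in UMIs per cell each would be 1.39 times higher.

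Metabolic and growth genes were near level. Oxidative phosphorylation had no call in 15 (median log2 ratio -0.04) and glycolysis none in 14 (0.08), with GAPDH at 3464 CPM in S-phase, 2906 CPM in G2 and 3294 CPM in resting cardiomyocytes. Growth signals had no call in 13 (-0.14). CCN2, a target of YAP, had 272 CPM in S-phase, 515 CPM in G2 and 379 CPM in resting cells.

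The 15 genes with the lowest ratios held chromatin regulators, matrix genes and metallothioneins. KDM5B (chr1:202724495-202808421), a histone H3 lysine demethylase, had 51.6 CPM in S-phase, 154 CPM in G2 and 147 CPM in resting cardiomyocytes, a ratio of 0.352 (0.321 to 0.385) to resting cells. It was spread over cells, with a UMI in 268 of 471 S-phase and 2976 of 3700 resting cardiomyocytes. By the S sum, which the rule used, its level was 147 CPM at 0 and at 1, 141 CPM at 2, 83.6 CPM at 3, 60.7 CPM at 4, 84.0 CPM at 5, 73.6 CPM at 6 and 39.6 CPM at 25 or more. KDM6B, another histone demethylase, had 13.9, 30.3 and 31.1 CPM in S-phase, G2 and resting cells, and MXD4, a MAX partner that opposes MYC, had 20.6, 36.8 and 55.2 CPM. LGALS1, encoding galectin-1, had 11.9 CPM in S-phase, 86.3 CPM in G2 and 42.9 CPM in resting cardiomyocytes. Others were HOTAIRM1, SLC35D2, KLHL41 and HIST3H2A.

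The matrix genes rested on fewer cells. COL1A1 had 64.8 CPM in S-phase, 230 CPM in G2 and 131 CPM in resting cardiomyocytes, and 5 cells gave 39.1% of its UMIs in S phase and 51.1% in G2. COL1A2 (ratio 0.429) and COL3A1 (0.504) are fibroblast markers as well, and the sum of that list moved in the same direction, 296 CPM against 553 CPM in resting cells. MGP, encoding a matrix protein, had 55.1 CPM in S-phase and 128 CPM in resting cells, with 49.1% of its S-phase UMIs in 5 cells, and its ratio of 0.432 was 0.471 among cells with 0 TBX3 UMIs, 0.240 with 1 to 2 and 0.935 with 3 or more. Against resting cells matched on depth, COL1A1 was at 0.282 and COL1A2 at 0.260. The part of fibroblast RNA in these results was not tested. MT2A, MT1X and MT1E encode proteins that bind metal ions, and are related genes whose reads may be hard to tell apart. They had 234, 73.5 and 127 CPM in S-phase and 455, 146 and 246 CPM in resting cells. In UMIs per cell, COL1A1, COL3A1, HIST3H2A, KLHL41 and the 3 metallothioneins were no longer past 1.5-fold, with ratios from 0.688 to 0.726 (MT1E also at 0.740 against depth-matched resting cells), while KDM5B was at 0.490, MXD4 at 0.520 and LGALS1 at 0.387.

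The same contrast in epithelial-like cells of the culture gave replication genes of like size and, in part, other genes at the low end. S-phase cells were 12.2% of 3282 epithelial-like cells (11.1 to 13.3%), and 12.7% after thinning, beside 10.0% of cardiomyocytes. Of 8967 genes, 834 were higher in S-phase than in resting epithelial-like cells (9.3%) and 377 lower (4.2%). Of 55 replication genes measured, 53 were higher, with a median log2 ratio of 2.56. PCNA had 325 CPM in S-phase and 27.1 CPM in resting epithelial-like cells. CDC45 differed 91.9-fold in epithelial-like cells and 81.5-fold in cardiomyocytes, and CCNE2 47.2-fold and 39.9-fold. MCM2 differed 8.68-fold in epithelial-like cells and 24.2-fold in cardiomyocytes. E2F8 differed 45.8-fold in epithelial-like cells, with 25.3 CPM in S-phase and 0.552 CPM in resting cells, and 3.85-fold in cardiomyocytes. Its neighbour on chromosome 11 is the muscle gene CSRP3. KDM5B had 73.7 CPM in S-phase and 233 CPM in resting epithelial-like cells, a ratio of 0.317, and MXD4 and HOTAIRM1 had ratios of 0.423 and 0.387. LGALS1 and COL1A2 had ratios of 1.02 and 0.923 there, and MT2A 0.946. CDKN1C had a ratio of 0.381, with 19.97 CPM in S-phase and 52.4 CPM in resting epithelial-like cells. The differences between the cell types were not tested, since each has 1 sample.

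**Figure D5:**
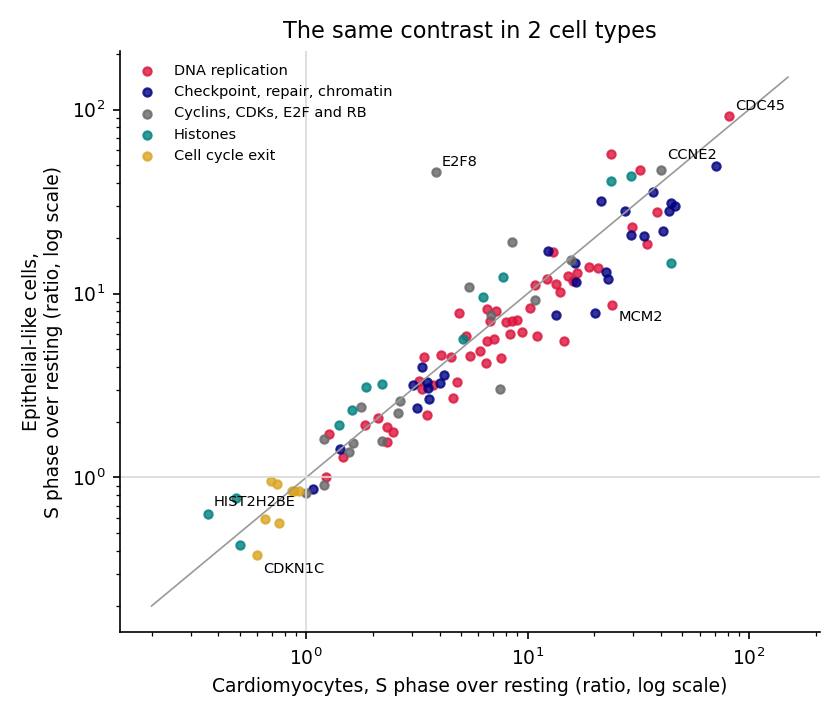
Ratio of S-phase to resting CPM in cardiomyocytes (x axis, log scale) and in epithelial-like cells (y axis, log scale) for genes of the cell cycle lists measured in both. CDC45, at 81.5 and 91.9, lies near the line of equal ratios, and E2F8 lies above it, at 3.85 in cardiomyocytes and 45.8 in epithelial-like cells.

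S phase was found at all levels of TBX3. Without thinning, S-phase cells were 8.91% of cardiomyocytes with 0 TBX3 UMIs, 9.86% of those with 1 to 2 and 9.08% of those with 3 or more. After thinning to 8000 UMIs, they were 11.4% (10.0 to 12.8%) at 0, 9.84% at 1 and 8.36% (7.03 to 9.85%) at 2 or more, an order that the unthinned shares did not show. TBX3 had at least 3 UMIs in 34.6% of S-phase and 34.9% of resting cardiomyocytes. After thinning to 5000 UMIs it was found in 36.0% of S-phase cardiomyocytes, 47.4% of G2 and 45.4% of resting ones, and in 25.8% of S-phase and 31.5% of resting epithelial-like cells. Within the S-phase cells, PCNA had 270.0 CPM at 0 TBX3 UMIs, 257 CPM at 1 to 2 and 235 CPM at 3 or more, against 21.7, 20.9 and 19.9 CPM in resting cells of the same classes, ratios of 12.4, 12.2 and 11.8. MKI67 had 119, 104 and 159 CPM and MYH6 5092, 6119 and 6315 CPM across the same classes of S-phase cells.

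CD34 antibody tags overlapped widely between the groups. S-phase cardiomyocytes had a median of 97 tag UMIs (quartiles 49 and 298.5), G2 cardiomyocytes 74 (38 and 297) and resting cardiomyocytes 80 (43 and 258). Against 471 resting cells matched on depth, the resting median was 90, and per 10000 RNA UMIs the medians were 49.7 in S-phase and 67.6 in resting cells, which turns the direction. In epithelial-like cells the medians were 37 in S-phase and 38 in resting cells. Within TBX3 classes, S-phase and resting medians were 61 and 53 tag UMIs at 0 TBX3 UMIs, 74 and 69.5 at 1 to 2, and 317 and 260.5 at 3 or more. Across 4 classes of cardiomyocytes of about equal size, from low to high tag, S-phase cells were 9.48%, 9.76%, 10.2% and 10.6% after thinning, shares whose intervals overlapped.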

How the data were processed

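RNA and antibody-tag libraries of 1 culture were deposited as whole-number UMI counts for 36601 genes and 1 tag in 14829 barcodes, made by the authors with Cell Ranger 6.1.2 on GRCh38, per the submitters' processing notes. They hold 239181462 RNA and 2773855 tag UMIs. Results for some genes are not reported here. No further normalization is given in the sources used here. The members and gene lists were chosen with earlier results of these data known. Counts were summed over the cells of each group, scaled to CPM and compared as ratios with exact conditional binomial intervals, using Python 3.11.15, numpy 2.4.6, pandas 2.3.3 and scipy 1.17.1. Intervals and shares cover counting error only, since cells are not replicates.

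Named genes were the 20 highest and 15 lowest ratios to resting cells and the 8 highest and 8 lowest to G2 cells, among genes at a mean of 20 CPM or more, without genes of the rule and without MT-, RPL and RPS genes, and besides them any member of 17 lists. Genes of the lists and the cell classes were fixed together with this rule. Shares of cells with a UMI were also taken after thinning to 5000 UMIs, which left out 1 S-phase and 226 resting cardiomyocytes. The sums were repeated after thinning to 8000 UMIs, with an S sum of 3 or more and a G2 sum of 1 or less. Doublets were called with Scrublet in scanpy 1.11.5 on 12119 cells, of which 1401 were called (11.6%, score over 0.115). The ratio and its interval were tested on counts simulated from the summed resting profile with counting error only. The simulated counts had no clumping of UMIs in single cells, so that test does not cover such clumping in the data. Promoters come from RefSeq (GRCh38.p14), matched by symbol.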

Additional observations from a re-analysis of the deposited data

How the results depend on the processing

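Besides the reported settings, 17 others were tried; of 96 values of the 7 summary results under them, 84 kept their size and 12 moved, and no value past 1.5-fold changed direction. The share in S phase was 8.09% at an S sum of 8 or more, 11.1% at 4 or more and 6.56% at a G2 sum of 1 or less. Genes higher and lower than in resting cells were 211 and 40 at a mean of 50 CPM or more, and 3828 and 2334 with no floor, where genes at few counts pass. In UMIs per cell, added after seeing the data, they were 2893 and 13, and the sarcomere and pacemaker medians were 0.24 and 0.22 on the log2 scale, against -0.24 and -0.26 in CPM, a turn of sign through the larger S-phase totals by construction. The tag ratio was 0.735 per 10000 RNA UMIs and 1.21 as reported. The replication median lay between 2.73 and 3.31. Among 41 single genes, 149 of 655 values moved and none changed direction; COL1A1 lay between 0.282 and 0.688, BRCA2 between 30.9 and 78.2, and CSRP3 stayed past 1.5-fold in 9 of 16 settings. No paired analysis was possible because there is 1 culture with 1 library of each kind. With 1 culture, variation between differentiations was not measured, cells over 35000 UMIs were left out by the rule, and transcripts near 1 UMI per cell cannot be called absent.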

Other observations

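E2F8 was found in resting cardiomyocytes and hardly in resting epithelial-like cells. It had 10.6 CPM in resting cardiomyocytes and 0.552 CPM in resting epithelial-like cells, and after thinning to 5000 UMIs it was found in 4.75% and 0.0541% of them. E2F8 lies on chromosome 11 at 19224063 to 19241655, next to CSRP3 at 19182030 to 19201983 (GRCh38.p14), a muscle gene with 680.5 CPM in resting cardiomyocytes and 13.6 CPM in resting epithelial-like cells. Whether reads of the neighbouring locus add to the E2F8 counts was not tested.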
